A study of Mus musculus with 2 samples.

Results

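The variable (V) segments of the alpha and beta chains of the T cell receptor were examined in splenic CD8 T cells, as all genes whose symbol starts with Trav or Trbv. There were 165 such genes among the 33696 genes measured, 130 Trav and 35 Trbv. They were read in CD8 T cells, defined as barcodes with at least 200 detected genes, under 10% mitochondrial UMIs (unique molecular identifiers, the counted RNA molecules), a UMI of Cd8a or Cd8b1 and a UMI of Cd3d, Cd3e or Cd3g. This gave 8717 of 9495 barcodes in the CTRL library and 10699 of 12128 in the DHEA library. The study compared wild-type C57BL/6 mice injected under the skin each day for 21 days with dehydroepiandrosterone (DHEA), an androgen precursor used to model polycystic ovary syndrome, and mice given only the vehicle, sesame oil (CTRL). The dose was 40 mg/kg, dissolved in a volume of 20 µL. Spleen CD8 T cells were taken with magnetic beads and pooled, and each group has 1 library of 10x Genomics 3' chemistry. The labels give no number, age or sex of the animals, and with 1 library a group no comparison of DHEA with CTRL has a replicate check. All intervals given are 95% intervals that cover counting error only and are not adjusted for the number of segments. They are exact for shares and usage ratios, and approximate for the sharing of segments between cells.

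Each developing T cell joins a V segment to a joining segment, and in the beta chain also to a diversity segment, so that every clone carries its own receptor and passes it to its daughters. The rearranged beta chain is tested first with the surrogate chain Ptcra, and the alpha chain follows. In a naive repertoire many V segments are used by many unrelated clones, while a clone that has divided many times repeats its own Trav and Trbv pair. In the messenger RNA the V segment lies at the 5' end, ahead of the constant region (Trac, Trbc1 or Trbc2), and the 3' chemistry reads mainly near the opposite end.

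The Trbv genes lie on chromosome 6 and the Trav genes on chromosome 14 in the GRCm38 annotation (GENCODE M21), in which all 165 were found by gene identifier. Many V segments arose by duplication, and how far related segments can be told apart is set by the bases that differ between them. The sequences shown are the last 120 bases of the annotated V transcript, on the coding strand, with capitals at the positions where the segments of a set differ. Trbv12-1 and Trbv12-2, the fourth and the most used beta segments, matched at 111 of these 120 bases:
Trbv12-1: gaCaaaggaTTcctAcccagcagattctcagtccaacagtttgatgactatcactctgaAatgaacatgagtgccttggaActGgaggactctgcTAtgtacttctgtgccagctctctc
Trbv12-2: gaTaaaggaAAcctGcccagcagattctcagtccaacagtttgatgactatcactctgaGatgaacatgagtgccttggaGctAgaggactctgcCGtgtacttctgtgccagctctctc
The members of the Trbv13 family, among the 10 most used beta segments, differed at 26 positions:
Trbv13-1: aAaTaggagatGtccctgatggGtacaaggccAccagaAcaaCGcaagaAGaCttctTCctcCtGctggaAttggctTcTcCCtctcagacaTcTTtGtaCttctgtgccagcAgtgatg
Trbv13-2: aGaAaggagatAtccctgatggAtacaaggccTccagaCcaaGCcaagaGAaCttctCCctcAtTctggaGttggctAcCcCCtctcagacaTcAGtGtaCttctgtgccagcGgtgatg
Trbv13-3: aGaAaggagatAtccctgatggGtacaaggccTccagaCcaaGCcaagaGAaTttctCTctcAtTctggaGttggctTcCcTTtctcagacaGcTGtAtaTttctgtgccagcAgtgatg
Trav16, Trav16n and Trav16d-dv11, which together took the largest share of any alpha family, differed at 4 positions:
Trav16: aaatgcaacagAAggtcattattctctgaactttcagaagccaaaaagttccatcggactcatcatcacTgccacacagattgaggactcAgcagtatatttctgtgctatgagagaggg
Trav16n: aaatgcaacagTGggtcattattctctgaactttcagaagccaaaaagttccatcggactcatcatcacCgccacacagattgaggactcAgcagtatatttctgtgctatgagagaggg
Trav16d-dv11: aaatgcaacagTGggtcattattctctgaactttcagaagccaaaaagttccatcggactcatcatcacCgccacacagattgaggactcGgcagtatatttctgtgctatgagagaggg
Trav12d-2 and Trav12n-2 stand for the segments that cannot be told apart, being identical over all 454 bases of their transcripts:
Trav12d-2: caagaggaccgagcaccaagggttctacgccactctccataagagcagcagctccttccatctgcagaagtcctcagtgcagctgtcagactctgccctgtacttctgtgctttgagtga
Trav12n-2: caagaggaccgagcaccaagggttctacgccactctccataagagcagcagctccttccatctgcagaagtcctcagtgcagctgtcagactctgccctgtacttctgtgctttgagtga
Neither Trav12d-2 nor Trav12n-2 had a UMI in either library.

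The CD8 T cells held 49239407 UMIs in CTRL (median 5615 per cell) and 50077687 in DHEA (median 4483), so cells were deeper in CTRL. The markers matched the label of the cells: Cd8b1 stood at 1017 and 1266 CPM (UMIs per 1000000 UMIs of the summed cells) in CTRL and DHEA, and Cd4 at 0.0609 and 0.0799. The 6 B cell markers summed to 271 and 291 CPM, of which Ighm made up 247 and 267, and Ms4a1 had 1 UMI in each library. The 4 natural killer cell markers summed to 11.2 and 10.0 CPM and the 6 myeloid markers to 62.7 and 75.0, most of it Cst3. Among the myeloid markers S100a8 had 1 UMI in CTRL and 205 in DHEA, and S100a9 had 1 and 258. There were 51 barcodes common to both libraries, of which 40 were CD8 T cells in both.

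V segments were read from a minority of cells. In CTRL 1388 cells (15.9%, 15.2 to 16.7) had a Trbv UMI, and in DHEA 1500 cells (14.0%, 13.4 to 14.7). Trav UMIs were found in 1484 CTRL cells (17.0%, 16.2 to 17.8) and 1711 DHEA cells (15.99%, 15.3 to 16.7). After each cell was thinned to 1000 UMIs, leaving out 8 CTRL and 137 DHEA cells too shallow for it, the shares were 3.53% and 3.30% for Trbv and 3.98% and 4.92% for Trav. In CPM the Trbv genes summed to 32.6 in CTRL and 34.1 in DHEA, and the Trav genes to 42.7 and 47.8. Trac, the alpha constant region, stood at 698 and 849 CPM.

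Free RNA in the droplets can place a V segment UMI in a cell that does not express it. Barcodes with no Cd3 and no Cd8 UMI were few and shallow: of 37 in CTRL (median 1413 UMIs) 1 had a Trbv UMI (2.70%, 0.0684 to 14.2), and of 130 in DHEA (median 945 UMIs) 7 had one (5.38%, 2.19 to 10.8). The thinned shares of CD8 T cells lie within these intervals, but Trac or Trbc UMIs were in 54.1% and 54.6% of these barcodes, so they are not a set free of T cell RNA. Agreement within cells was measured as well. Among cells with at least 2 Trbv UMIs, all of them came from the same segment in 118 of 188 CTRL cells (62.8%, 55.4 to 69.7) and in 100 of 177 DHEA cells (56.5%, 48.9 to 63.9). UMI pairs drawn from unrelated cells would match in 6.46% and 7.04%. For Trav the shares were 263 of 376 (69.9%) and 304 of 437 (69.6%), against 2.75% and 2.92%. The remaining cells held UMIs of more than 1 segment. A cell was assigned to a segment when that segment held more than 50% of its UMIs at the locus, which assigned 1328 CTRL and 1437 DHEA cells for Trbv and 1408 and 1616 for Trav. Usage below is the share of these assigned cells. Most of these assignments rest on 1 UMI, where agreement within the cell cannot be checked. The share of wrong assignments was not measured, nor was its effect on the comparisons of usage and pairs below.

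The most used beta segments held similar shares in the libraries, though equality of usage was not tested. Trbv12-2, a segment of the family known to immunologists as V beta 5, led in both, with 185 CTRL cells (13.9%, 12.1 to 15.9) and 234 DHEA cells (16.3%, 14.4 to 18.3), a log2 ratio of DHEA over CTRL of 0.23 (-0.06 to 0.51). Its relative Trbv12-1 stood at 6.63% and 6.96%, and the family with the pseudogene Trbv12-3 reached 20.6% and 23.4%. The Trbv13 family (V beta 8) made up 18.6% and 17.0%. Of its members Trbv13-2 was used by 6.25% and 6.61% of cells and Trbv13-1 by 6.02% and 5.71%. Trbv2 was at 7.61% and 7.10%, Trbv16 at 8.06% and 6.61%, Trbv3 at 5.95% and 6.26%, and Trbv15 at 5.12% and 5.85%. The 5 most used segments held 42.5% of CTRL and 43.6% of DHEA cells. Below Trbv12-2 the intervals of neighbours in this order overlap, so that the ranks among them are not resolved.

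Among the 13 Trbv segments with at least 100 assigned cells, 0 were 1.5-fold or more apart between DHEA and CTRL, and their log2 ratios ran from -0.41 to 0.50. The highest was Trbv19, used by 62 CTRL cells (4.67%) and 95 DHEA cells (6.61%), a log2 ratio of 0.50 (0.03 to 0.99). Trbv1 was next at 4.44% and 5.43%, with a log2 ratio of 0.29 (-0.22 to 0.80). The lowest was Trbv13-3, used by 82 CTRL cells (6.17%) and 67 DHEA cells (4.66%), a log2 ratio of -0.41 (-0.89 to 0.08). Trbv29 stood at 4.82% and 3.69%, with a log2 ratio of -0.39 (-0.94 to 0.16), and Trbv16 had -0.29 (-0.70 to 0.13). Only the interval of Trbv19 among these excludes 0. As background on the scale of single genes, 13.4% of all genes with 100 to 700 UMIs over both libraries were at least 1.5-fold apart in CPM. Across segments with a UMI, usage in CTRL and DHEA correlated at r = 0.97, given as a description, since the segments share each library.

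**Figure D1:**
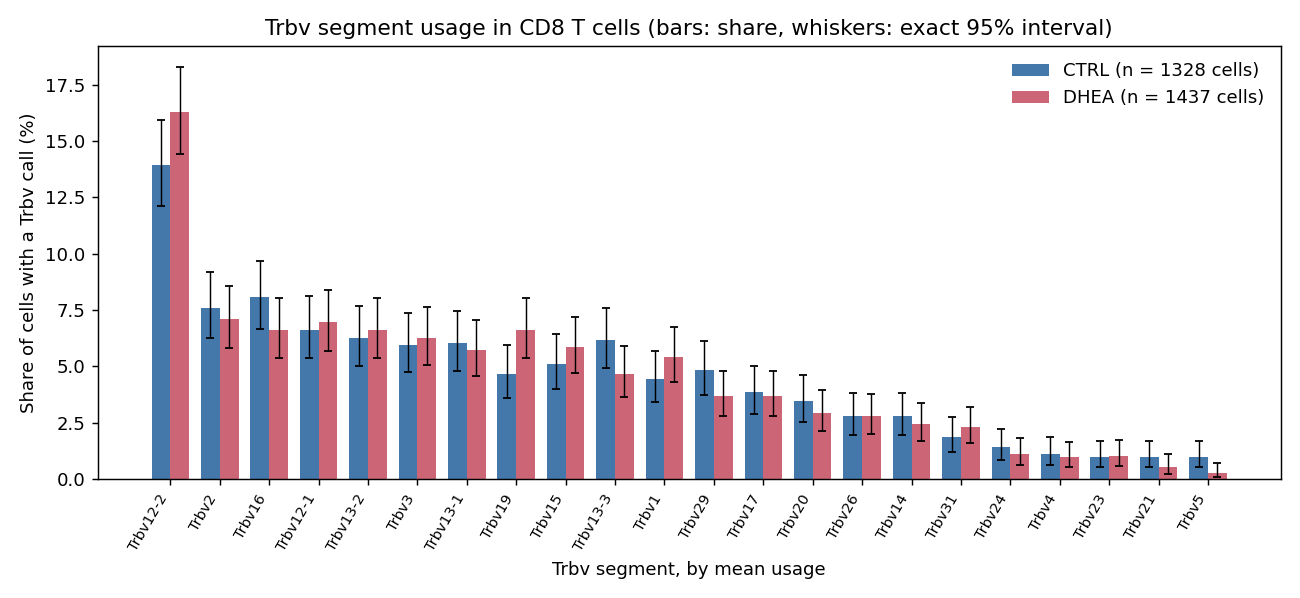
Share of Trbv-assigned CD8 T cells (percent, bars from 0) using each of the 22 most used Trbv segments, ordered by mean usage, for CTRL (1328 cells) and DHEA (1437 cells); whiskers are exact 95% intervals. Trbv12-2 stands above all others in both libraries at 13.9% and 16.3%, and the bars of the 2 libraries follow each other along the order.

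Alpha chain usage was spread over more segments. Its 2 leading segments again held similar shares in the libraries, and equality of usage was not tested. Trav16n led with 105 CTRL cells (7.46%, 6.14 to 8.96) and 132 DHEA cells (8.17%, 6.88 to 9.61), followed by Trav16 with 96 (6.82%) and 110 cells (6.81%). With Trav16d-dv11 the family reached 17.3% and 17.5%. Trav3-3 was used by 91 CTRL cells (6.46%) and 78 DHEA cells (4.83%), and Trav6-7-dv9 by 3.62% and 4.08%. Trav14d-3-dv8 stood at 3.27% and 3.09%, Trav12-2 at 2.91% and 3.40%, and Trav14-2 at 2.56% and 3.59%. The 5 most used held 27.6% and 28.8% of cells, a smaller share than the 5 most used beta segments. Trav16n and Trav16 differ by less than their intervals in both libraries.

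Of the 5 Trav segments with at least 100 assigned cells, 0 were 1.5-fold or more apart. Trav13-1 lay just under that size: 46 CTRL cells (3.27%, 2.40 to 4.33) and 79 DHEA cells (4.89%, 3.89 to 6.06), a log2 ratio of 0.58 (0.04 to 1.14). Counted only in cells with a single Trav segment its log2 ratio was 0.64, past 1.5-fold, and by shares of UMIs 0.92. In DHEA 1 cell held 8 Trav13-1 UMIs, against at most 3 in a CTRL cell. Trav3-3 had the lowest log2 ratio, -0.42 (-0.88 to 0.03), and Trav6-7-dv9 and Trav16 had 0.17 (-0.38 to 0.73) and 0.00 (-0.41 to 0.41). Over segments with a UMI the usage of the libraries correlated at r = 0.96. In CPM, 9 V genes had at least 200 UMIs, and 0 of them were 1.5-fold apart between DHEA and CTRL, where 3.24% of all 10515 genes measured the same way were. Their median log2 ratio was 0.11, against 0.00 over all those genes. With a minimum of 50 UMIs 11 of 49 V genes were 1.5-fold apart, where 7.14% of all 12788 genes were. Of all genes with 100 to 700 UMIs 13.4% were, and neither set was matched to these V genes in UMIs. The 11 went in both directions. The lowest was Trav6n-6, with 37 UMIs in CTRL and 15 in DHEA, a log2 ratio of -1.33 (-2.30 to -0.43). The highest was Trav13-1, with 58 UMIs in CTRL and 125 in DHEA, or 1.178 and 2.496 CPM, a log2 ratio of 1.08 (0.62 to 1.56).

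**Figure D2:**
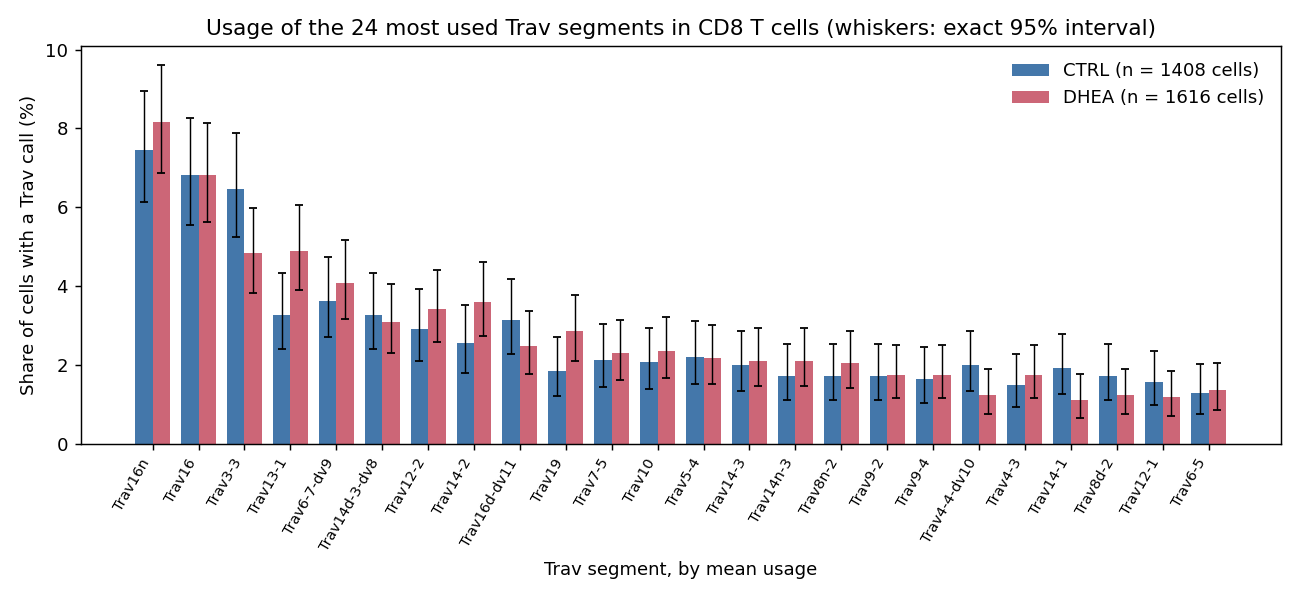
Share of Trav-assigned CD8 T cells (percent, bars from 0) using each of the 24 most used Trav segments, ordered by mean usage, for CTRL (1408 cells) and DHEA (1616 cells); whiskers are exact 95% intervals. Trav16n, Trav16 and Trav3-3 lead in CTRL, and Trav13-1 stands at 3.27% in CTRL and 4.89% in DHEA with intervals that overlap.

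Members without a UMI were sorted by annotation and by copies. Of the 35 Trbv members 24 had a UMI in at least 1 library, and all 11 at 0 were annotated as pseudogenes. The 22 Trbv genes that are not pseudogenes all had UMIs, with a median of 139 over both libraries and 517 for Trbv12-2. Among pseudogenes Trbv24 stood out with 52 UMIs and 19 CTRL (1.43%) and 16 DHEA cells (1.11%), and Trbv12-3 had 1 UMI. Of the 130 Trav members 88 had a UMI. The mouse Trav locus holds series of duplicated segments marked d and n in their names, and 37 Trav genes were identical over their last 200 bases to another member. Of these 37 genes 29 were at 0, and together they had 10 UMIs, at most 3 for a gene. The 73 Trav genes with no such copy had 4410 UMIs, a median of 43, and 2 (Trav11d and Trav7-2) were at 0. The values of genes with identical copies are uncertain, since reads that fit several genes can be dropped or split when they are counted. Over the 22 Trbv and 73 Trav genes without copies, mean usage had a Pearson r with the longest run of A in the transcript of 0.03 and 0.21, given as a description over genes. Its r with the order along the locus was -0.32 for Trbv and 0.33 for Trav.

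**Figure D3:**
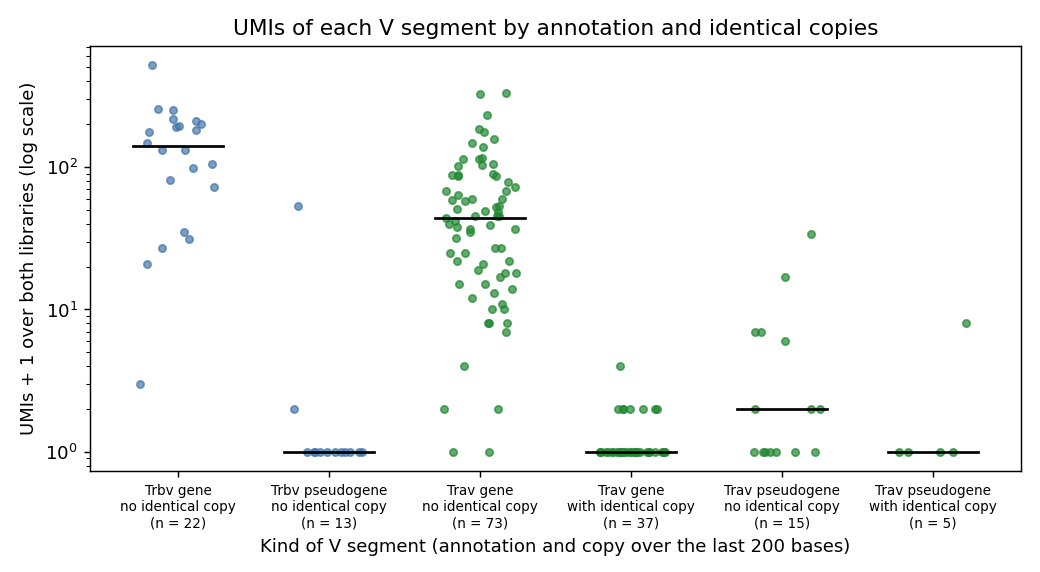
UMIs of each V segment over both libraries, plus 1 (log scale), by locus, annotation and whether another member is identical over the last 200 bases; each point is a gene and the black line is the median. Trav genes with an identical copy lie at 0 to 3 UMIs, while Trav genes without one have a median of 43 and Trbv genes a median of 139.

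The d copies were used by 14.0% of CTRL and 12.0% of DHEA cells, and the n copies by 18.4% and 18.3%. In cells rich in Ccl5 (described next) the d copies were used by fewer of the assigned cells in both libraries: 10.8% (7.40 to 15.05) against 15.2% (13.0 to 17.7) in CTRL and 9.46% (7.13 to 12.3) against 13.5% (11.2 to 16.1) in DHEA. The intervals overlap within each library, and this split was not tested. The d copies include Trav16d-dv11, whose lower usage in cells rich in Ccl5 is given below, so these are not separate results.

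Usage was then set side by side in cells with 0 and with at least 3 UMIs of Ccl5, a chemokine of memory and effector CD8 T cells. Cells at 0 made up 70.4% of CTRL (6135 cells) and 51.2% of DHEA (5474), and cells with at least 3 made up 15.7% (1366) and 30.1% (3224). The cells rich in Ccl5 were deeper, with a median of 7179 against 5304 UMIs in CTRL and 5377 against 4031.5 in DHEA. Genes of memory T cells were higher in them by edgeR's quasi-likelihood test on UMIs summed per library and class (log2 fold change ± SE): 7 of 7 memory genes rose, where 14.6% of all genes tested did, among them Cd44 by 2.80 ± 0.08 and the transcription factor Tbx21 by 3.66 ± 0.08. Among genes of naive T cells, the lymph node homing receptor Ccr7 (-0.89 ± 0.05), Lef1 (-0.79 ± 0.05) and Tcf7 (-0.24 ± 0.05) fell, and Il7r rose (0.32 ± 0.05). The calls of Tcf7 and Il7r were lost without the library block (edgeR adjusted p = 0.153 and 0.120) and with library sizes set to the sum of Trav (0.650 and 0.864), and that of Il7r with DESeq2 (adjusted p = 0.260). The natural killer markers also moved with the class, from a sum of 2.39 to 47.3 CPM in CTRL and from 3.94 to 21.6 in DHEA; their part in the results that follow was not tested. Trbv genes summed to 34.0 CPM in cells without Ccl5 and 29.0 in cells rich in it in CTRL, and to 37.3 and 29.8 in DHEA, while Trav genes summed to 41.1 and 48.5 in CTRL and to 49.0 and 47.4 in DHEA.

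No segment with at least 100 assigned cells over the 4 sets of cells was 1.5-fold apart in the same direction in both libraries, out of 12 Trbv and 4 Trav segments. In CPM 16% of all genes with 100 to 700 UMIs were. The log2 ratio had the same sign in both libraries for 7 of the 12 Trbv and 2 of the 4 Trav segments. Trbv15 was used by 7.14% of cells rich in Ccl5 against 4.48% of cells without it in CTRL, and by 6.88% against 4.98% in DHEA, which are log2 ratios of 0.67 (-0.26 to 1.54) and 0.47 (-0.28 to 1.21). Trbv12-2 stood at 18.8% against 13.3% in CTRL and 16.7% against 15.8% in DHEA, log2 ratios of 0.49 (-0.05 to 1.01) and 0.09 (-0.36 to 0.52). Trbv12-1 had 0.34 and 0.21. On the lower side Trbv19 was used by 2.23% of cells rich in Ccl5 (5 cells) against 4.81% of cells without it in CTRL, and by 5.96% against 7.19% in DHEA, log2 ratios of -1.11 (-2.80 to 0.22) and -0.27 (-1.01 to 0.44). Trbv1 had -0.94 and -0.30, and Trbv16 -0.29 and -0.07. All of these intervals for which bounds are given include 0.

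The other segments named here are Trbv13-3, Trbv2, Trav16 and Trav16n, with log2 ratios of opposite sign in the libraries, and Trav13-1 and Trav3-3, with the same sign in both. Trbv13-3 was at 5.79% without Ccl5 and 7.59% with it in CTRL, but at 5.95% and 2.75% in DHEA, log2 ratios of 0.39 (-0.49 to 1.20) and -1.11 (-2.17 to -0.16). Trbv2 had -0.65 in CTRL and 0.07 in DHEA. Among alpha segments Trav13-1 stood at 2.38% without Ccl5 (22 cells) and 5.40% with it (15 cells) in CTRL, a log2 ratio of 1.18 (0.13 to 2.19), and stood at 4.54% and 5.19% in DHEA, a log2 ratio of 0.19 (-0.58 to 0.95). Trav3-3 had -0.24 and -0.37, Trav16 0.30 and -0.18, and Trav16n 0.19 and -0.02. Taken alone, CTRL had 4 Trbv segments (Trbv1, Trbv2, Trbv15 and Trbv19) and 1 Trav segment (Trav13-1) past 1.5-fold, and DHEA had 1 Trbv segment (Trbv13-3) and 0 Trav segments. The share of all genes past 1.5-fold in a single library was not computed, so these counts have no background. Cells rich in Ccl5 held fewer calls in CTRL (224 Trbv and 278 Trav) than in DHEA (436 and 539), and the counts cannot be read as a difference between the libraries.

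**Figure D4:**
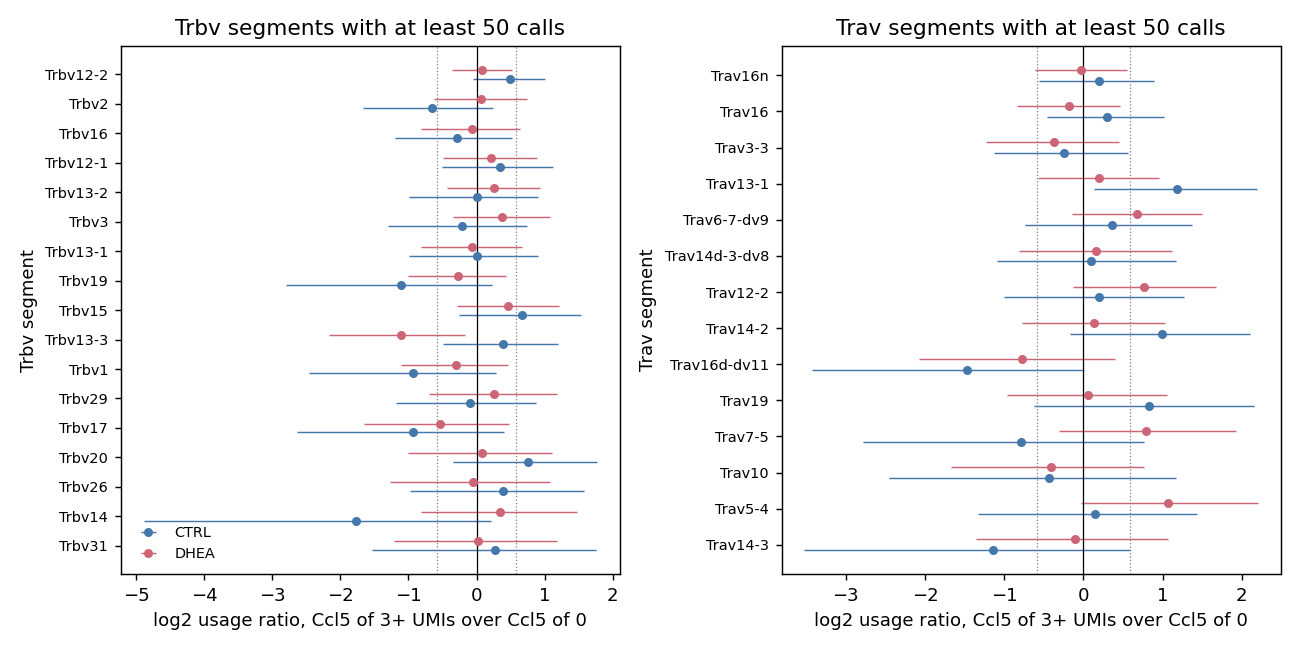
Log2 ratio of usage in cells with at least 3 Ccl5 UMIs over cells with 0 (x axis), for Trbv (left) and Trav (right) segments with at least 50 assigned cells over the 4 sets, in CTRL and DHEA; lines are exact 95% intervals, drawn no further than -5 or 5, and dotted lines mark 1.5-fold. Most intervals cross 0, and Trav16d-dv11 is the only segment drawn that lies past 1.5-fold in the same direction in both libraries.

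The same classes were compared by level, in edgeR on 4 sums with the library as a block, which leaves 1 residual degree of freedom and draws the spread from a trend over all genes. Of 53 V genes that passed the filter on low counts, 6 passed an adjusted p of 0.05, 5 higher and 1 lower in cells rich in Ccl5, while 26.2% of all 13050 genes tested did (14.6% higher and 11.5% lower). These shares are not matched for count, since many of the genes tested had more UMIs than any V gene. The median log2 fold change of the 53 was 0.01, against 0.00 over all genes. The other members did not pass the filter and were not tested. The lower gene was Trav16d-dv11, with 48 UMIs without Ccl5 and 4 with it in CTRL, and 29 and 12 in DHEA, which is 1.49 to 0.42 CPM and 1.27 to 0.67 CPM. Its log2 fold change was -1.22 ± 0.44 (SE, edgeR adjusted p = 0.0233), and its usage was 4% against 1.44% in CTRL and 2.85% against 1.67% in DHEA. Its close relatives Trav16n and Trav16 did not pass. Trav16n matched Trav16d-dv11 at 119 of the last 120 bases, and how well their UMIs are told apart was not tested. Summed over its segments, the Trav16 family had log2 usage ratios of -0.006 in CTRL and -0.18 in DHEA.

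The higher genes were all Trav genes. Trav6-7-dv9, Trav13-4-dv7 and Trav21-dv12 carry dv in their names, which marks segments shared with the delta chain, as does the lower gene Trav16d-dv11. The delta constant gene Trdc moved with the class as well, from 4.71 to 25.2 CPM in CTRL and from 7.76 to 15.7 in DHEA, and its part in these calls was not tested. Trav6-7-dv9 had 48 and 25 UMIs in CTRL and 32 and 45 in DHEA, or 1.49 and 2.61 CPM and 1.40 and 2.52 CPM, a log2 fold change of 0.86 ± 0.30 (edgeR adjusted p = 0.0219). Trav12-2 had 34 and 19 UMIs in CTRL and 31 and 41 in DHEA, a log2 fold change of 0.85 ± 0.33 (edgeR adjusted p = 0.0387). Counted in cells, Trav12-2 usage was 3.14% and 3.60% in CTRL and 2.72% and 4.64% in DHEA. Trav13-2 rose by 1.36 ± 0.51 (edgeR adjusted p = 0.0312), Trav13-4-dv7 by 1.31 ± 0.50 (0.0347) and Trav21-dv12 by 1.22 ± 0.48 (0.0445), each on 7 to 22 UMIs per sum in cells rich in Ccl5. Among Trbv genes the lowest p belonged to Trbv1, with a log2 fold change of -0.88 ± 0.36 (edgeR adjusted p = 0.0551). UMIs of the same cell are not independent, and a cell held up to 11 UMIs of a segment in CTRL and 9 in DHEA. With DESeq2 0 of 67 V genes passed (0 at an unadjusted p of 0.05), where 1118 of all 13966 genes did. Without the library block 0 of 53 V genes did (5 at an unadjusted p of 0.05), where 1048 of all 13050 genes did. With library sizes set to the sum of Trav only Trav16d-dv11 of 35 Trav genes passed (edgeR adjusted p = 0.0493), where 1061 of all 13050 genes did. Set to the sum of Trbv 0 of 18 Trbv genes did (0 at an unadjusted p of 0.05), where 6293 of all 13050 genes did.

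Expansion of clones was looked for in the evenness of usage. The chance that 2 assigned cells drawn at random share a Trbv segment was 6.46% (4.73 to 8.62) in CTRL and 7.04% (5.33 to 9.23) in DHEA. In cells without Ccl5 it was 6.31% and 6.86%, and in cells rich in Ccl5 7.45% (3.13 to 13.6) and 7.24% (4.25 to 11.6). For Trav the chance was 2.75% (1.63 to 4.18) in CTRL and 2.92% (1.91 to 4.39) in DHEA, 2.73% and 2.83% without Ccl5, and 3.14% (0.790 to 7.20) and 3.01% (1.29 to 5.78) with it. These values correspond to 15.5 and 14.2 equally used Trbv segments and 36.4 and 34.2 Trav segments. All differences between classes or libraries were smaller than these intervals. The intervals were computed as if from separate pairs of cells, while the chance was taken over all pairs, which makes them wide. Their overlap therefore cannot show that usage was equally even.

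Effector cells, with at least 2 UMIs over the cytotoxic granule genes Gzma, Gzmb and Gzmk and the receptor Klrg1, numbered 37 in CTRL and 288 in DHEA. In DHEA 34 of them had a Trbv call, with a chance of a shared segment of 8.20% (0.149 to 28.7), and Trbv12-2 was the most frequent with 6 cells (17.6%, 6.76 to 34.5). The 38 Trav calls gave 4.13% (0.133 to 26.0), with Trav16n in 5 cells (13.2%, 4.41 to 28.1). The intervals of these chances were computed in the same approximate way, on few pairs of cells. CTRL had 6 Trbv and 8 Trav calls in effector cells, too few to describe. In DHEA 5 effector cells had a call at both loci.

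**Figure D5:**
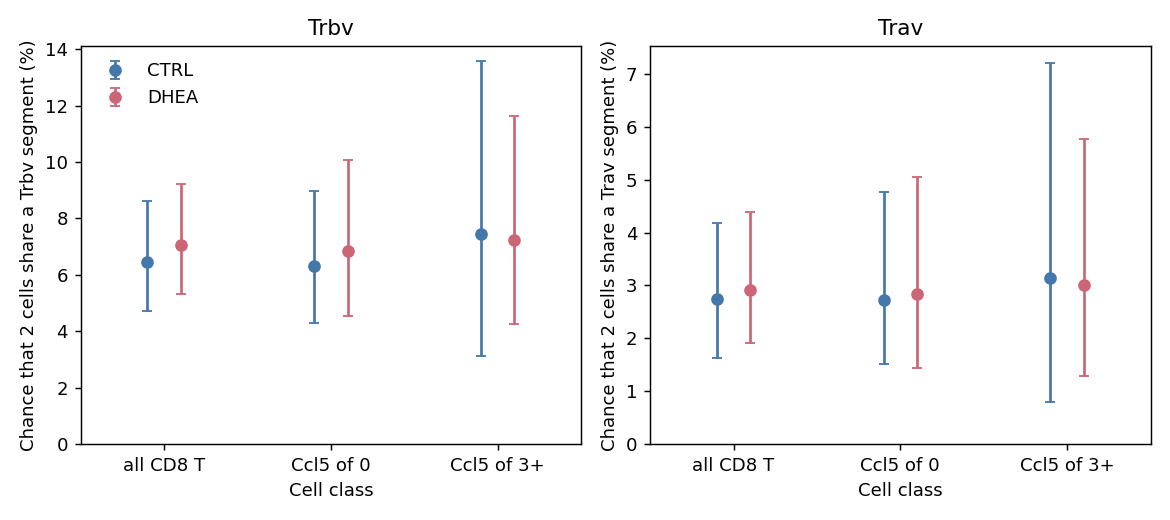
Chance in percent that 2 assigned cells share a Trbv (left) or Trav (right) segment, for all CD8 T cells, cells with 0 and cells with at least 3 Ccl5 UMIs, in CTRL and DHEA. Lines are approximate 95% intervals computed as if from separate pairs of cells, which makes them wide. The points lie between 6.31% and 7.45% for Trbv and between 2.73% and 3.14% for Trav, and all intervals overlap.

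A clone repeats its Trav and Trbv together. Both loci were assigned in 237 CTRL and 245 DHEA cells. Among CTRL cells 53 pairs of cells shared both segments, where 47.6 were expected from the product of the chances for each locus, a ratio of 1.11 (0.835 to 1.46). In DHEA there were 77 against 68.0, a ratio of 1.13 (0.894 to 1.42). In cells rich in Ccl5 7 pairs of cells against 4.43 in CTRL (48 cells) gave a ratio of 1.58 (0.636 to 3.26), and 6 against 5.94 in DHEA (77 cells) gave 1.01 (0.370 to 2.20). Cells without Ccl5 had 1.41 (0.886 to 2.14) and 1.25 (0.754 to 1.96). Every one of these intervals includes 1, and since a cell enters several pairs of cells they are too narrow.

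The most frequent combination in CTRL was Trav8n-2 with Trbv12-2 in 4 of 237 cells (1.69%, 0.462 to 4.26), where the usage of each segment gives 1.06 cells. In DHEA Trav16n with Trbv12-2 and Trav16 with Trbv12-2 each had 5 of 245 cells (2.04%, 0.666 to 4.70), where 3.86 and 3.33 are expected, and Trav8n-2 with Trbv12-2 had 3 cells against 0.702. All 4 CTRL and all 3 DHEA cells with Trav8n-2 and Trbv12-2 had 0 UMIs of Ccl5. Among cells rich in Ccl5 the most frequent were Trav9-2 with Trbv12-2 in 3 of 48 CTRL cells (6.25%, 1.31 to 17.2), against 0.688 expected, and combinations held by 2 of 77 DHEA cells (2.60%, 0.316 to 9.07). A clone of a few percent of the cells would lie within these intervals, so smaller expansions were not detectable at this depth. Sharing both V segments does not make cells a clone, and joining segments and junctions were not compared.

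The beta constant region gives a coarser view with far more cells, because a clone uses either Trbc1 or Trbc2. Of cells with at least 5 Trbc UMIs, Trbc1 was the major form in 1802 of 7525 CTRL cells (23.9%, 23.0 to 24.9) and 1839 of 8280 DHEA cells (22.2%, 21.3 to 23.1). In cells rich in Ccl5 the shares were 22.8% (20.5 to 25.3) and 21.2% (19.6 to 22.8), and in cells without it 24.01% and 23.2%. In effector cells they were 34.5% of 29 CTRL cells (17.9 to 54.3) and 24.6% of 228 DHEA cells (19.1 to 30.7). In 62.4% of CTRL and 63.1% of DHEA cells both forms had UMIs.

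The other genes of the receptor were measured beside the V segments. Of the 7 receptor complex genes, DHEA over CTRL log2 ratios in CPM ran from -0.07 for the signalling chain Cd247 to 0.28 for Trac, with Cd3g at 0.20, Cd3d at 0.16 and Trbc1 at 0.04. Of these genes 0 were 1.5-fold apart, where 3.24% of all genes with at least 200 UMIs were. Between the Ccl5 classes Trac rose by 0.24 ± 0.05 on the log2 scale, Cd247 (-0.33 ± 0.05), Cd3g (-0.18 ± 0.05), Trbc1 (-0.14 ± 0.05) and Cd3e (-0.12 ± 0.05) fell, and Cd3d and Trbc2 did not pass (edgeR adjusted p = 0.484 and 0.145). These differences are small and depend on the fit. Without the library block none of the 7 passed (Trac at an edgeR adjusted p of 0.379, Cd247 at 0.0505, Cd3g at 0.546, Trbc1 at 0.459 and Cd3e at 0.625), and with DESeq2 Trbc1 (adjusted p = 0.061) and Cd3e (0.211) did not pass. Scaled to the sum of Trav none of the 7 passed. Scaled to the sum of Trbv, which moves the median log2 fold change of all genes to 0.25, Cd3g (0.07), Cd3e (0.13) and Trbc1 (0.11) were positive and did not pass, Cd3d (0.30) and Trbc2 (0.16) passed, and Tcf7 stood at 0.01. The gamma and delta constant genes Trdc, Trgc1 and Trgc2 rose by 1.73 ± 0.12, 3.09 ± 0.25 and 4.13 ± 0.17, and the call of Trdc was lost with DESeq2 (adjusted p = 0.0862). Dntt, the enzyme that adds bases at the junctions during rearrangement, fell by 2.35 ± 0.29, from 3.69 to 0.42 CPM in CTRL and from 5.65 to 1.29 in DHEA. The recombinase genes Rag1 and Rag2 had 0 UMIs in both libraries, and Ptcra had 11 in CTRL and 4 in DHEA.

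Segments carried by invariant T cells were assigned in few cells. Trav11, carried by invariant natural killer T cells, was assigned in 3 CTRL and 3 DHEA cells, of which 2 and 1 had a UMI of Zbtb16, the transcription factor of such cells. Zbtb16 UMIs were found in 30 CTRL and 22 DHEA cells in all, of which only 6 and 3 had a Trav call. Trav1, carried by mucosal-associated invariant T cells, was assigned in 14 cells (0.994%) and 15 cells (0.928%), of which 0 had a Zbtb16 UMI.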

How the data were processed

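The authors deposited unnormalized UMI counts of 2 libraries. Per the file headers these came from Cell Ranger 8.0.1, and per the submitters' processing notes Seurat 4.3.0 and the mm39 build are named too, without the step each served. Neither source says whether reads fitting several genes were counted. Cells, assignments and usage are defined in the report. The members and gene lists were chosen with earlier results of these data known. Ratios take exact intervals from the split of 2 counts, with 1.5-fold as a rule of size among segments with at least 100 assigned cells. A value of 0 was set to 3 for a ratio. With 1 library per group there is no test of DHEA against CTRL. Ccl5 classes were tested with edgeR 4.0.16 (quasi-likelihood, TMM, filterByExpr, library as block, Benjamini-Hochberg over all genes), with DESeq2 1.42.0 as an alternative, in R 4.3.3. The block is the library from which both classes come. The SE given with an edgeR log2 fold change is its absolute value divided by the square root of the F statistic of the test. Python 3.11.15, numpy 2.4.6, scipy 1.17.1, pandas 2.3.3 and matplotlib 3.10.9 did the rest, and the edgeR and pair steps were tested on simulated data. No doublet caller was run; alternatives left out the top 5% of cells by UMIs or cells with more than 1 segment. The genome build of the counts differs from that of the annotation, which was used only for sequences, annotation and order. Named per locus were the 8 most used segments, the 3 highest and 3 lowest ratios in each comparison (for Ccl5 among segments with the same sign in both libraries), V genes past the edgeR threshold, frequent pairs, Trav1 and Trav11; any other segment was picked with its values in view. The marker list of gamma delta T cells holds 4 symbols, of which only Trdc is in the files under that spelling. Some genes of the lists are not reported here.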

Additional observations from a re-analysis of the deposited data

Results flagged for a closer look

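Receptor segments outside the Trav and Trbv genes also had UMIs in the CD8 T cells. The 60 joining segments of the alpha chain (Traj) had 192 UMIs in CTRL and 200 in DHEA, in 2.01% and 1.73% of cells, while the 14 joining segments of the beta chain (Trbj) had 2 and 1. The 6 V segments of the delta chain (Trdv) had 66 UMIs in CTRL and 104 in DHEA, in 0.631% and 0.738% of cells. The 7 V segments of the gamma chain (Trgv) had 114 and 121 UMIs. Trgv UMIs were in 0.163% of CTRL cells without Ccl5 (0.0782 to 0.300) and 5.49% of those rich in it (4.34 to 6.83), and in 0.0913% (0.0297 to 0.213) and 2.73% (2.19 to 3.35) of the DHEA cells. The Traj, Trdv and Trgv counts are above the 3 UMIs that a count of 0 allows, and the Trbj counts are not.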

How the results depend on the processing

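Of the 86 alternative values of the main results 65 stayed close to them by a loose rule. A count had to be equal or within 1.5-fold, and a chance of a match or a pair ratio had to lie inside the main interval. The intervals of the chances are wide and the alternatives reuse the same cells, so the 65 do not measure how robust the results are. Trav segments 1.5-fold apart between DHEA and CTRL went from 0 to 1 in cells with a single segment (Trav13-1), to 3 by shares of UMIs (Trav13-1, Trav19 and Trav4-4-dv10, of 14) and to 1 with at least 50 cells (Trav19, of 18). Between Ccl5 classes there was 1 Trav segment by shares of UMIs (Trav12-2, of 9) and 1 with at least 50 cells (Trav16d-dv11, of 14). With 1 library left out, the counts between Ccl5 classes ran from 1 to 4 for Trbv and from 0 to 1 for Trav, without a share over all genes. Summed by family, the chance of a match was 10.6% and 11.3% for Trbv and 8.85% and 9.05% for Trav in CTRL and DHEA, since a family holds several segments. The excess of repeated pairs in DHEA was 0 in thinned cells, on 20 cells. V genes passing between Ccl5 classes were 0 of 53 with no replicate block (the library left unpaired) and 0 of 67 with DESeq2. Scaled to the sum of Trav and of Trbv they were 1 of 35 and 0 of 18. With no filter on low counts 3 of 110 passed, where 3193 of all 20833 genes did. With Ccl5 of at least 1 only Trav13-2 and Trbv1 passed, 2 of 60, where 3026 of all 13366 genes did. Trav16d-dv11 did not pass there (edgeR adjusted p = 0.0637). In thinned cells 0 of 9 passed (1 at an unadjusted p of 0.05), where 1553 of all 10453 genes did. Without TMM 7 of 53 passed, where 3471 of all 13050 genes did. With at least 50 UMIs, 11 of 49 V genes were 1.5-fold apart in CPM, against 7.14% of all 12788 genes, which were not matched to them in UMIs. Scaled to the sum of Trbv, 5816 of all genes were higher and 477 lower between Ccl5 classes, against 1908 and 1506. No segment reached 100 cells for usage in thinned cells or with at least 2 UMIs of the segment. Pairs with at least 2 UMIs, CTRL pairs in thinned cells and CPM in thinned cells gave no value either. Of 545 alternative values of single segments, 467 stayed close. That meant inside the main interval, within the spread of the 2 libraries, or with the edgeR call or its absence unchanged. A further 51 moved (among them Trbv12-2 between DHEA and CTRL, -0.42 with at least 2 UMIs of the segment against 0.23). Another 25 lost their edgeR call, and 2, both Trbv1, gained one. Only the 6 V genes called in the main fit had a call to lose, and all 6 lost it with DESeq2 and without the library block. Depth limits the rest: most calls rest on 1 UMI.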
